A study of Mus musculus with 2 samples.

Results

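Retained-intron transcripts are transcript models that GENCODE M21, the mouse gene annotation used here for transcript types, marks as carrying intron sequence that other transcripts of the same gene splice out. Members were chosen by their measured level: a model of type retained_intron had to reach at least 1 TPM (the deposited transcript level, scaled by length and library) in both libraries. Of 21848 such models in the annotation, 14285 were listed in both transcript tables and 2943 of these were members (20.6%), in 1772 host genes. The levels below are therefore a description and carry no test. The data came from whole liver of C57BL/6J embryos at day 14, a stage when the liver makes both red blood cells and plasma proteins. The 2 libraries, replicates 1 and 2, formed the single group. Both were stranded libraries of polyadenylated RNA, from separate tissue samples that pooled male and female littermates and that the labels tie to 1 donor record. No treatment, genetic change or other tissue was compared, and nothing in the labels limits the tissue to 1 cell type, so fewer cells of a type and less RNA per cell cannot be told apart.

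The tissue labels were checked against gene levels. Paired values are for replicate 1 and then replicate 2 throughout. Summed over 5 erythroid markers the TPM was 147617 and 139984, most of it Hbb-bs, and over 5 hepatocyte markers it was 20956 and 23884. Granulocyte, megakaryocyte and macrophage markers were also present, the 4 granulocyte genes at 838 and 1220 TPM. The 4 skeletal muscle markers stood apart, with a summed 40.7 TPM in the first library and 1.72 TPM in the other, where the lowest was at 0. Replicate 1 held 97174776 and replicate 2 149348514 expected counts on mouse transcripts.

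An intron is normally cut out of the RNA before it leaves the nucleus, from a 5′ end that almost always reads GT to a 3′ end that reads AG. When it stays in, the reading frame of a coding RNA usually runs into a stop codon, and such RNA can be held in the nucleus or destroyed by nonsense-mediated decay, the pathway that removes RNA with early stop codons. In maturing red cells and in genes for splicing factors, retained introns are known as a way to lower protein output, and Slc25a37, the mitochondrial iron importer mitoferrin-1, is a known example.

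The members fell into kinds that the sequences show better than the name does. The first kind holds a whole intron of another transcript inside 1 exon. Shown for it are the short introns of leading members, on mm10 and the gene's strand, with the 2 bases at each end and the first in-frame stop codon in capitals. The frame is that of the most abundant coding transcript that splices the intron.
Slc1a5-202, intron 7 of 8, chr7:16795953-16796023, plus strand: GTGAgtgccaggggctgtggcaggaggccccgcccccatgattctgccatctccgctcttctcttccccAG
Rps20-201, intron 1 of 3, chr4:3835292-3835483, minus strand: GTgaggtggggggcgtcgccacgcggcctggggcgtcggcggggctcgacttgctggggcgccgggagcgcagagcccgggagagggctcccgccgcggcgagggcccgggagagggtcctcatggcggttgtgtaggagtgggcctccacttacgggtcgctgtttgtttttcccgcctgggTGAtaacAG
Mrps26-201, intron 2 of 3, chr2:130564228-130564307, plus strand: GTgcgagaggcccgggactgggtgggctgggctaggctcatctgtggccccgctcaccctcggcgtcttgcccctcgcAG
Eef1a1-203, intron 6 of 7, chr9:78479193-78479277, minus strand: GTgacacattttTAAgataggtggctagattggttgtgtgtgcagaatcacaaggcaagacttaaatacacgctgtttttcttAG
Pabpc1-204, intron 10 of 14, chr15:36598128-36598201, minus strand: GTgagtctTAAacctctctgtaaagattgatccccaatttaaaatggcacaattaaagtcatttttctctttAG
In Slc1a5-202 the stop codon TGA begins at base 2 of the 71-base intron, and in Rps20-201 it begins at base 184 of 192. The 80-base intron of Mrps26-201 held no in-frame stop.

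The second kind holds no whole intron: the model starts or stops partway through one. Shown here are the ends of such models among the most abundant, with the intron bases in capitals and 20 bases of the adjoining exon in lower case.
Hba-a1-202, 5′ end, intron bases chr11:32283811-32283923, plus strand: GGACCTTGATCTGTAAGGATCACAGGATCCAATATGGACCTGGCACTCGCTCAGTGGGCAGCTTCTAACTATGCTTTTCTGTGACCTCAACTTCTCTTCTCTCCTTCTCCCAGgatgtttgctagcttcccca
Taf10-202, 5′ end, intron bases chr7:105743985-105744082, minus strand: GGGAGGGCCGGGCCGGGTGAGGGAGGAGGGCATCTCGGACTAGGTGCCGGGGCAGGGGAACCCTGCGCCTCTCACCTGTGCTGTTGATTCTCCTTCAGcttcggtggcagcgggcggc
Trf-209, 5′ end, intron bases chr9:103211997-103212006, minus strand: CTCTACCCAGgaaagaaccctgccgaatgg
Sri-201, 5′ end, intron bases chr5:8059342-8059352, plus strand: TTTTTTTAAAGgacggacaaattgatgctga
Cdk1-204, 3′ end, intron bases chr10:69345005-69345060, minus strand: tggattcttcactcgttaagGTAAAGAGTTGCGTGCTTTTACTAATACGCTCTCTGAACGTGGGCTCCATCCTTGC
Rps9-206, 3′ end, intron bases chr7:3704769-3704877, plus strand: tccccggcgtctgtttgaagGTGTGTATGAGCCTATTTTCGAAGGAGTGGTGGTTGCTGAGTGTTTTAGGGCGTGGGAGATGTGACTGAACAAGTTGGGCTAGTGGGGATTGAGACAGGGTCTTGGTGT
The 5′ ends shown run out of the intron through its AG, and the 3′ ends run in through its GT. The intron part was 10 bases of the 433-base Trf-209 model and 11 bases of the 640-base Sri-201 model, against 113 of 494 bases in Hba-a1-202.

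Counted over the 2837 members whose length was the same in the tables and in M21, 1219 (43.0%) held a whole intron and 1583 (55.8%) only began or ended inside one. Of the latter, 1005 began and 694 ended inside an intron, 116 of them both. Another 35 fell in neither class, 25 of them in genes with a coding transcript. In the rest an end inside an intron could not be found, since only introns of coding transcripts were searched for ends. A further 106 members had a model of another length in M21 and were not classed. Among the 11011 retained_intron models under the minimum that could be classed, 28.9% held a whole intron. Members with a whole intron most often held 1 (720 members) or 2 (281 members). The highest number, with overlapping alternatives counted separately, was 14 in Nop56-212, a model of the gene for a core protein of box C/D small nucleolar particles.

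In the 2798 classed members of genes with a coding transcript, a median of 31.7% of the model's bases were intronic. A base counted as intronic only if it lay in an intron of a coding transcript and in no exon of another. Srsf1-203, which holds a whole 378-base intron of a coding transcript, thus had 0 intronic bases. The other bases include exon shared with the spliced RNA, but how much was not counted. Under 20% of the bases were intronic in 923 members (33.0%), and 77 members had at most 20 intron bases. Reads from the shared exons cannot by themselves be told apart from those of the spliced RNA.

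Most members were low. The mean TPM over both libraries had a median of 2.52 and a middle range from 1.63 to 4.99, and 295 members reached 10 TPM in both. Only 13 reached 100 TPM and 2 reached 1000 TPM in both. Those just inside the minimum were Atg4b-202 (1.03 and 1.00 TPM), Brd2-205 (1.77 and 1.00 TPM) and Bud31-205 (1.00 and 1.33 TPM). Those just outside were 2700097O09Rik-203 (0.99 and 1.42 TPM), Abcb6-202 (1.07 and 0.99 TPM) and Acin1-220 (1.12 and 0.99 TPM). By type, 20.6% of the measured retained_intron models reached the minimum, against 29.8% of 47459 protein_coding, 15.3% of 4687 nonsense_mediated_decay and 10.9% of 11939 processed_transcript models.

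The highest member came from an alpha globin gene. The level of Hba-a1-202 was 32019.9 and 26239 TPM, which was 58.3% and 53.3% of the TPM of all members. It took 57.4% and 57.7% of the summed TPM of Hba-a1, and its coding transcript Hba-a1-201 took the rest. The same model exists in the neighbouring alpha globin gene: Hba-a2-202 was listed at 80.9 and 85.9 TPM, 0.0399% and 0.0477% of Hba-a2. The sequences of the 2 models differ at 1 of 494 positions (C399T, Hba-a1-202 first, counted from the 5′ end of the model), and at none of the 113 intron bases shown above. Reads from the near-identical copies can be split either way by the counting, so the level of each is uncertain. In the separate mm9 table, whose replicates are not named, Hba-a1-202 was listed at 2221 and 13807 RPKM (reads scaled by length and depth) and Hba-a2-202 at 0 and 8223 RPKM, so the split between the copies differed there. Hbb-bs-202, from the adult beta globin gene Hbb-bs, followed at 4739 and 4257 TPM but was 3.25% and 3.09% of its gene, and its model length differed between annotations.

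All members together took 5.64% of the mouse TPM in replicate 1 and 5.10% in replicate 2. Without Hba-a1-202 and Hbb-bs-202 they took 1.86% and 1.94%. In expected counts, which are not divided by length, all members took 3.32% and 3.02%.

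**Figure D1:**
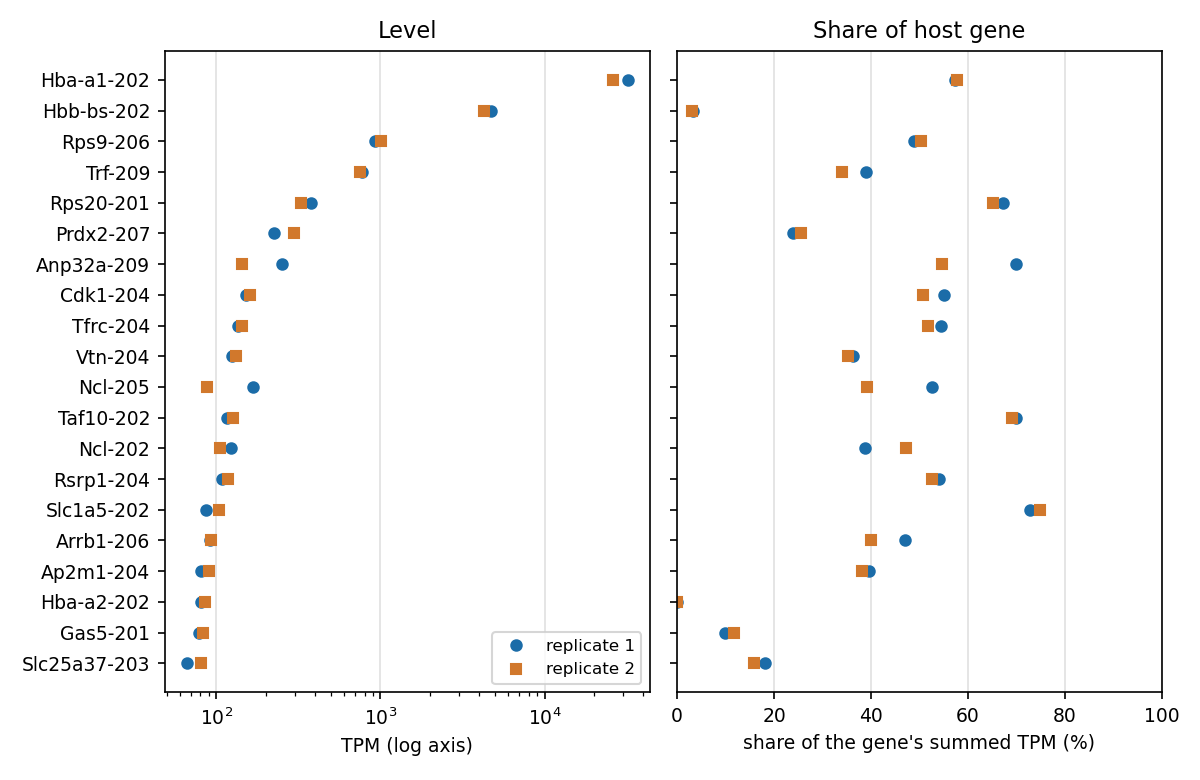
The 20 members with the highest mean level, with TPM on a log axis (left) and the share of the gene's summed TPM in percent (right), 1 point per library. The levels run from 32019.9 TPM for Hba-a1-202 to 66.2 TPM for Slc25a37-203 in replicate 1, and the points of the libraries stand apart most for Anp32a-209 and Ncl-205.

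Below the globins the next by mean TPM were Rps9-206, Trf-209, Rps20-201, Prdx2-207, Anp32a-209, Cdk1-204, Tfrc-204, Vtn-204, Ncl-205 and Taf10-202. Rps9-206, from a protein of the small ribosomal subunit, was at 925 and 1003 TPM, and Rps20-201, from another, at 376 and 328 TPM. Trf-209, from transferrin, the iron carrier of plasma, was at 777 and 750 TPM. Tfrc-204, from the transferrin receptor that takes up this iron, was at 135 and 144 TPM. Each of these 4 members made up at least 34.0% of its gene's TPM in both. By expected counts, which are not divided by length, Rps9-206 was 21.8% and 22.5% of its gene and Tfrc-204 53.3% and 50.7%.

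Cdk1-204, from the kinase that drives entry into mitosis, was at 152 and 161 TPM, 55.1% and 50.7% of its gene by TPM and 23.0% and 21.6% by expected counts. Prdx2-207, from the abundant red cell peroxidase peroxiredoxin 2, was at 226 and 295 TPM, 23.8% and 25.6% of its gene. Vtn-204, from the plasma adhesion protein vitronectin, was at 124 and 132 TPM. In Cdk1-204 and Vtn-204 the libraries lay close together, and in Prdx2-207 replicate 2 was higher.

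Anp32a-209 and Ncl-205 were less even. The level of Anp32a-209, from an acidic nuclear phosphoprotein, was 249.6 and 143 TPM, with shares of 70.0% and 54.6% by TPM and 48.1% and 31.5% by expected counts. Ncl-205, from nucleolin, the nucleolar protein of ribosome assembly, was at 166 and 87.5 TPM. A second nucleolin member, Ncl-202, holds 2 whole introns and was at 123 and 105 TPM, and the 4 nucleolin members together took 92.5% and 87.9% of the gene. Replicate 1 was the higher library in each of these 3 members.

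Among host genes, most had 1 member (1075 genes), 426 had 2, 155 had 3 and 116 had 4 or more. Gas5, a noncoding gene whose introns carry small nucleolar RNAs, had 17, followed by Eif4a2 with 9 and Nop56 with 8. The 17 Gas5 members summed to 434 and 411 TPM, 55.1% and 58.0% of the gene. Small RNA genes, microRNA genes among them, lay inside retained introns of 29 host genes, Gas5 with 11 such introns, Snhg17 with 6 and Nop56 with 5. These were 62 of 2001 distinct whole introns in members, against 12 of 4392 found only in models under the minimum. Overlapping alternative introns around the same small RNA gene are counted separately. Gas5 introns of 271 and 435 bases both hold Snord78, and the 6 of Snhg17 hold Gm23925 and Gm26003 alone. Gas5-222, at 71.1 and 66.6 TPM, spans the small nucleolar RNA gene Snord78.

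The share of a member in its gene had a median of 8.74% over all members, with quartiles of 3.93% and 17.7%. At least 10% of the gene was reached in both libraries by 1221 members (41.5%), at least 25% by 423 and at least 50% by 70. Only Gm20427-201, Gm21982-201 and Gm42742-201 passed 90%, each at 100%. These 3 are named because so few passed. A share of 100% means that no other transcript the table gives that gene had any TPM. Per host gene the summed share had a median of 16.9%, and 154 genes (8.69%) gave at least 50% to members in both libraries. For comparison, the median share was 67.2% for protein_coding, 14.0% for nonsense_mediated_decay and 15.6% for processed_transcript models at the same minimum.

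**Figure D2:**
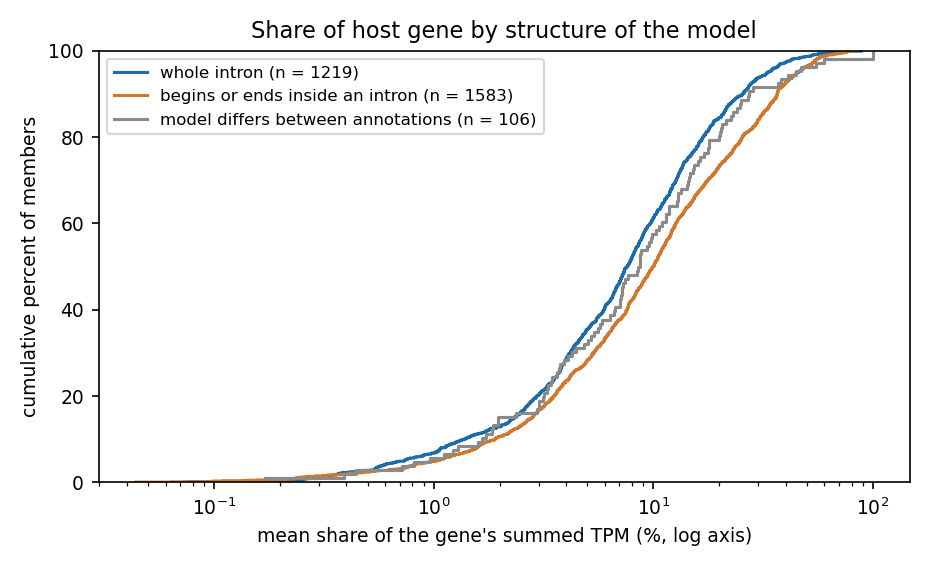
Cumulative percent of members (y axis) against the mean share of the gene's summed TPM in percent (x axis, log), by structure of the model. Members that begin or end inside an intron (median 10%) lie to the right of those with a whole intron (median 7.62%), an order that reverses when shares are taken from expected counts (2.99% and 5.01%).

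High shares went with a small intronic part. In the 64 classed members with at least 50% of the gene's TPM in both libraries, a median of 10.3% of the bases were intronic, and 48 were under 20%. In the other 2734 the median was 32.2%, and 875 were under 20%. Across these 2798 members, which share libraries and host genes, Spearman's rho between the intronic part and the share was -0.39. Whether the shared exons set these shares was not tested.

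**Figure D3:**
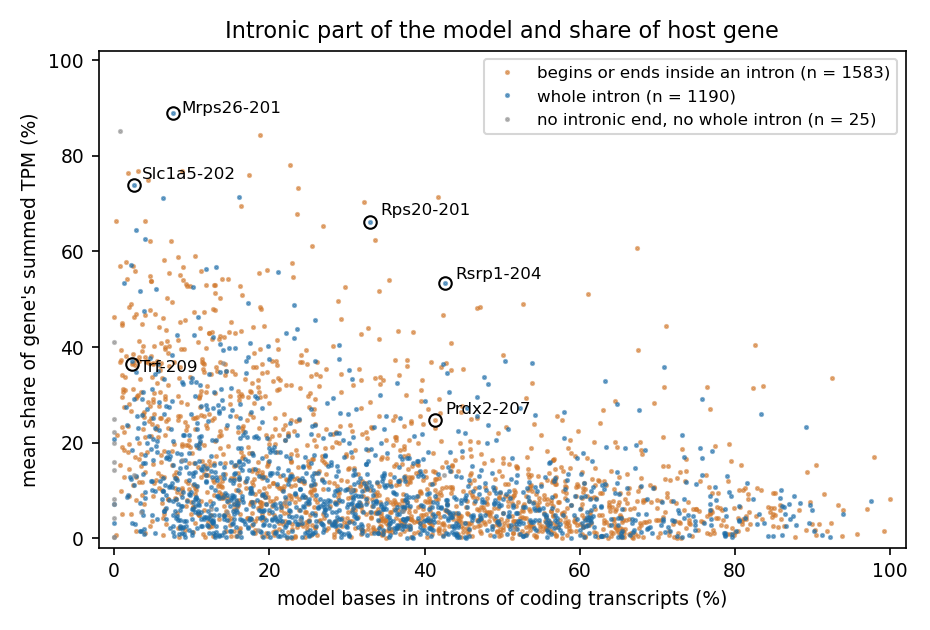
Mean share of the gene's summed TPM (y axis, percent) against the intronic part of the model (x axis, percent). There is 1 point per member, coloured by structure. The intronic part counts bases that lie in introns of coding transcripts and in no exon of one. Most members above 50% lie at the left edge, and among the circled members Rps20-201 (33.0% intronic) and Rsrp1-204 (42.7%) lie further right.

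Which other models the gene has in the table also differed. Rps20-201 took 67.3% and 65.2% of Rps20, whose only coding model, Rps20-203, is 3706 bases long against 582 for the member. By expected counts the member took 19.4% and 17.3%. In Taf10, a subunit of the general transcription factor TFIID, Taf10-202 took 70.0% and 69.1% of the TPM. The sole coding model, Taf10-203, is 4281 bases long and stood at 2.65 and 3.14 TPM. The pair of Taf10 members together took 98.3% and 97.9% of the gene.

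The 3 highest shares by the naming rule were those of Mrps26-201, Timm17a-204 and Mrps25-201. Mrps26-201, from a mitochondrial ribosomal protein, took 88.8% and 89.1% by TPM, at 20.6 and 21.5 TPM, and 62.2% and 62.8% by expected counts. Its gene's only coding model is 4278 bases long against 1057. Mrps25-201, from another, took 84.2% and 84.4% by TPM and 31.7% and 30.03% by expected counts, beside a coding model of 6073 bases against 565. Timm17a-204, from an import channel of the inner mitochondrial membrane, took 82.5% and 88.1% by TPM and 36.0% and 37.4% by expected counts. Its leading coding model is shorter, at 468 bases, and 4 of its 565 bases were intronic. Over all members of at least 50%, 25 of 66 (37.9%) had a gene with a single coding model, against 21.2% of the other 2835 in genes with a coding model. A long coding model was common in both sets. The leading coding model was at least 2 times as long as the member in 62.1% of the 66 and 57.5% of the 2835.

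Short models weigh more in TPM than in counts. Trf-209, 433 bases long, had an effective length (the number of start positions a fragment can take) of 216 and 213 bases. It was 38.9% and 34.0% of Trf by TPM but 6.23% and 4.96% by expected counts. Arrb1-206, from the receptor adaptor beta-arrestin 1, was 47.1% and 40.0% by TPM and 4.34% and 3.46% by counts. Over all members the median share was 3.65% by counts, and 34 members rather than 70 passed 50% in both libraries.

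Some long members with whole introns had larger shares by counts than by TPM. Slc1a5-202, from the glutamine transporter ASCT2, was at 86.4 and 104.5 TPM and took 72.8% and 74.9% of its gene by TPM, and 84.6% and 84.2% by counts. Its coding model Slc1a5-201, of nearly the same length (2741 against 2807 bases), was at 12.02 and 16.2 TPM. Rsrp1-204, from an arginine- and serine-rich protein, was at 108 and 118 TPM and took 54.0% and 52.7% by TPM, and 70.4% and 68.9% by counts. Srsf5-212, from a splicing factor of the SR family, was at 61.9 and 72.7 TPM and took 21.3% and 22.8% by TPM, and 39.5% and 41.7% by counts. Slc25a37-203, the mitoferrin-1 member, was at 66.2 and 80.8 TPM and took 18.1% and 15.8% by TPM, and 24.3% and 21.4% by counts. In Slc25a37-203 the share by TPM lay near the upper quartile of all members, and in the other members of this group above it. The introns concerned include the 71-base one printed for Slc1a5-202, a 1302-base intron in Rsrp1-204, a 1229-base intron in Srsf5-212 and a 1756-base intron in Slc25a37-203.

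The retained introns were short. The 2001 distinct whole introns in members had a median length of 224 bases, and 60.5% were at most 300 bases. All introns of coding transcripts in the host genes had a median of 853 bases, and 27.8% were at most 300. Whole introns found only in models under the minimum had a median of 294 bases. In members 97.3% had GT-AG ends and 1.65% GC-AG ends. The median GC content was 51.8%, against 51.2% under the minimum.

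Of the introns in members, 1488 lay between coding exons, 87 in 5′ UTRs and 28 in 3′ UTRs of a protein_coding transcript. The others were introns only of transcripts of other types. An in-frame stop, such as those in capitals above, was found in 1321 of 1487 with a known frame (88.8%), and in 88.9% of those under the minimum. The introns without a stop were shorter, with a median of 91.0 bases against 236 for those with one. Of the introns of coding transcripts, 12.5% were the last of the transcript in members and 6.94% under the minimum, and 11.2% and 10.5% were the first.

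Spliced reads gave a separate measure. Junction reads, which cross from exon to exon, were deposited on the older build mm9 for both replicates together. On that build 2583 members (87.8%) were found by identifier, and 1059 with the same exon lengths held a whole intron. All 1675 distinct retained introns found there had a median of 529 junction reads, and 152 (9.07%) had none. The 1118 of them that are introns of coding transcripts and that no coding exon overlaps had a median of 932, and 27 (2.42%) had none. Other introns of host genes had a median of 524.5, and 2.51% had none. For 796 of these the gene had at least 3 other introns with a median of at least 100 reads. The reads over the retained intron were a median of 90.4% of the median over the gene's other introns. They were under 50% in 140 (17.6%) and under 10% in 53 (6.66%). Of 11472 other introns of host genes, 11.1% and 5.39% were that low. Each of these other introns was itself part of its gene's median, which draws them toward 100%, and the retained introns were not. The percents are therefore not a like comparison. The remaining retained introns had at least 50%.

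**Figure D4:**
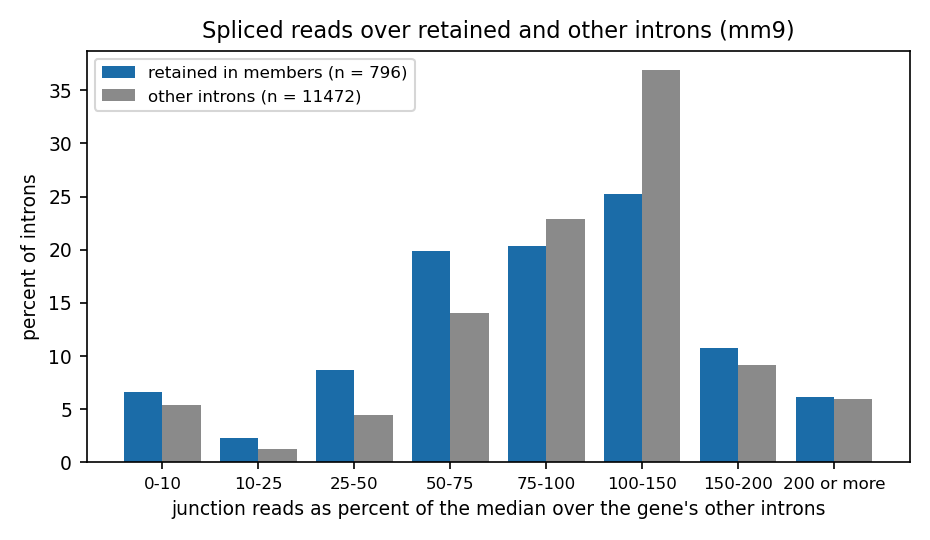
Percent of introns (y axis) by junction reads as a percent of the median over the gene's other introns (x axis). Bars are for introns retained in members and for other introns of host genes. The other introns are part of that median themselves and the retained ones are not, so the sets are not compared on equal terms. The bars for retained introns are higher below 75, lower between 75 and 150, and higher again above 150 (10.8% against 9.18% up to 200, and 6.16% against 5.95% beyond).

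Named members differed in this measure. The 71-base Slc1a5 intron had 1286 junction reads, 19.6% of the median over 2 other introns of the gene. The 1229-base Srsf5 intron had 86 reads, 2.13% of the median over 2 others. The 1302-base Rsrp1 intron had 1108, 19.0% of the median over 2 others. Shorter alternative introns inside these stretches also had reads. They were 448 over a 263-base intron in Srsf5, and 501, 215, 108 and 252 over those in Rsrp1. The 378-base intron of Srsf1-203 had 36 reads, 0.861% of the 1 other intron. The member took 4.28% and 5.26% of its gene by counts. That intron lies within exons of other coding transcripts. It is therefore not among the 1118, and its reads cannot be compared with theirs. Few reads and a high share did not go together throughout. The Mrps26 intron had 1354 reads, 80.5% of the median over 2 others. The Rps20 intron had 24134 reads, the printed Pabpc1 intron 160.8% of the median over 8 others, and the 82-base intron of Agrn-205, from the matrix protein agrin, 111% of the median over 34 others. Contigs, the stretches of continuous RNA coverage, held at least 50% of the bases in 99.3% of the 1118 retained introns and in 90.2% of other introns of host genes. The median contig level was 7.92 and 2.89. Other introns were longer, with a median of 705 bases against 194. Among introns of at most 300 bases the shares were 99.5% and 93.5% and the median levels 8.665 and 5.05. Members were chosen for their RNA level, and the other introns are those that no exon of the gene overlaps. Part of this contrast was therefore set by the choice, and it is no separate support for retention.

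The mm9 table gave another unit, RPKM, so its values cannot be read as higher or lower than TPM. Of the 2583 with an RPKM value, 660 (25.6%) reached 1 RPKM in both replicates and 20 were listed at 0 in both. Across these members Spearman's rho between TPM and mean RPKM was 0.50. Slc1a5-202 was at 33.2 and 34.7 RPKM. Cdk1-204 was at 0.351 and 0.329 RPKM, and Rps9-206 at 11.8 and 5.61 RPKM. Eef1a1-203 was at 149 and 58.8 RPKM, and Rps2-203 at 151 and 105.5 RPKM. The order of members thus differed between the tables: Cdk1-204 and Rps9-206 lay below Eef1a1-203 and Rps2-203 in RPKM and above them in TPM. The tables also used different annotations.

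Host genes were then counted by lists of genes. Of 11524 genes that reached 1 TPM in each library, 40.2% had a retained_intron model in the tables and 15.4% hosted a member. Of the genes with at least 10 TPM, 29.1% did. The list percents below are for genes of at least 1 TPM and are to be read against 15.4%. Among genes of at least 10 TPM, translation factors (28.6%) and secreted liver proteins (4.08%) lay below 29.1%, and the other lists above it. Lists also differed in how many genes had a retained_intron model. The lowest was 15.8% for secreted liver proteins, and chromatin and transcription genes had 67.5%, spliceosome core genes 61.0% and DNA replication and mitosis genes 57.4%.

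Among the 24 genes for SR and related proteins and for the CLK and SRPK kinases that phosphorylate them, 16 (66.7%) hosted a member. A retained_intron model was in the tables for 17 of the 24 (70.8%), against 40.2% of all genes. The 38 members had a median share of 7.61%. Beside Srsf5-212 these included Srsf1-203 at 27.9 and 38.5 TPM and Srsf2-203 at 28.2 and 32.1 TPM. Srsf2-203 spans introns of the 3′ UTR of its gene, and Srsf1-203 spans a 378-base intron. Clk1 had 4 members that summed to 31.7% and 33.0% of the gene, and Clk4 had 5 that summed to 35.5% and 34.2%. Of genes for the spliceosome core 18 of 41 (43.9%) hosted a member, led by Ddx39b-204 from an RNA helicase of splicing and export at 41.4 and 48.9 TPM. Of hnRNP and other splicing regulator genes 17 of 39 (43.6%) did, with Hnrnpk-209 at 21.8 and 19.8 TPM and Rbm3-209, from a cold-induced RNA-binding protein, at 18.9 and 21.1 TPM. In genes with intron retention described elsewhere 9 of 14 (64.3%) hosted a member. That list was drawn up with such models in mind and overlaps the others.

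Cytosolic ribosomal protein genes hosted members in 42 of 81 cases (51.9%). The 103 members were small parts of their genes, with a median share of 0.541%, although they summed to 2122 and 2180 TPM. Rps2-203, at 67.8 and 53.9 TPM, was 3.44% and 2.54% of its gene by TPM and 1.88% and 1.38% by counts. Of translation factor genes 17 of 63 (27.0%) hosted a member. Eef1a1-203, from the elongation factor that brings transfer RNA to the ribosome, was at 51.5 and 56.0 TPM and 1.34% and 1.41% of its gene by TPM and 0.649% and 0.651% by counts. Pabpc1-204, from the poly(A)-binding protein, was at 49.3 and 51.5 TPM, and 11 of 32 genes of RNA decay and export (34.4%) hosted a member.

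Genes for DNA replication and mitosis hosted members in 27 of 54 cases (50%), with Tyms-202, from thymidylate synthase, at 35.7 and 40.3 TPM and Mcm3-203, from a subunit of the replicative helicase, at 32.7 and 27.8 TPM. Of their 48 classed members 14 held a whole intron (29.2%), against 43.0% over all members. Chromatin and transcription genes hosted members in 17 of 40 cases (42.5%), led by Hdac2-203, from a histone deacetylase, at 19.3 and 9.82 TPM. Erythroid and heme genes hosted them in 20 of 54 cases (37.0%), with a median share of 5.98%.

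Secreted liver protein genes stood at the other end: 2 of the 57 counted (3.51%), Trf and Vtn, hosted a member. Only 9 of the 57 had a retained_intron model in the tables. The symbol C5 on that list was not in the annotation, so Hc, the mouse gene for complement C5, was not counted. Its member Hc-202 was at 14.88 and 14.95 TPM, 26.9% and 26.1% of the gene. Of small nucleolar RNA host genes 3 of 12 (25.0%) hosted a member, Gas5, Snhg5 and Snhg17, and 4 of the 12 had a model. Their members held a whole intron in 18 of 20 classed cases, and Gas5 gave 17 of the 21 members. Ends inside an intron were sought only in introns of coding transcripts. Members of genes without a coding transcript, such as Gas5, could therefore not be classed as beginning or ending inside one. The count of whole introns cannot be set against that over all members. The 3 members of Snhg5 summed to 46.7% and 43.3% of that gene. The list was drawn by symbol and leaves out other hosts of small nucleolar RNA genes: Zfas1, with Snord12 inside a retained intron, had 4 members that summed to 49.2% and 50.2% of its gene.

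**Figure D5:**
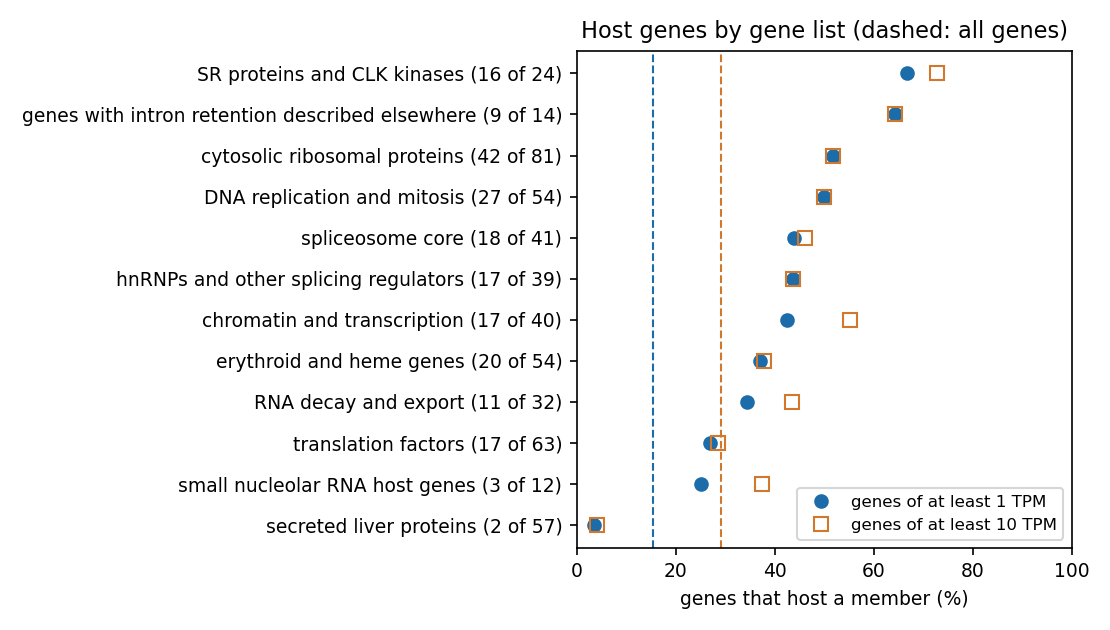
Percent of the genes in each list that host a member (x axis), for genes of at least 1 TPM (filled circles, counts in the labels) and at least 10 TPM (open squares). The dashed lines mark all genes at 15.4% and 29.1%, and the list of secreted liver proteins lies below both.

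Between the libraries, Spearman's rho across the 2943 members, which share host genes, was 0.92 for TPM and 0.98 for the share. With 1 group of 2 libraries there was no test between conditions. After centring on the median of all transcripts, 17 members (0.578%) were higher in replicate 2 by 2-fold or more and 49 (1.66%) in replicate 1. Over all 19719 transcripts of at least 1 TPM in both, the percents were 0.487% and 0.943%. Without centring, which moves every ratio by 0.15 on the log2 scale, the members' counts were 32 (1.09%) and 26 (0.883%). Over all transcripts the percents were then 0.832% and 0.578%, so the direction with more calls turned in both. With TMM-scaled expected counts, an alternative scaling of the libraries, the members' counts were 16 (0.544%) and 48 (1.63%). Over all transcripts they were 0.456% and 0.958%, in the direction of the centred values. The share differed by under 5 percentage points in 2686 members (91.3%), with a median of 0.943 points.

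The 5 members with the largest difference in share were Paf1-208, Tnnt1-212, LTO1-202, Faap100-202 and Srsf11-211. Paf1-208, from a subunit of an elongation complex of RNA polymerase II, was at 25.3 and 10.2 TPM, 49.2% and 26.5% of its gene by TPM and 12.5% and 5.05% by counts, with 14 intron bases in its model. Srsf11-211, from an SR-type splicing factor, was at 23.7 and 2.08 TPM, 19.7% and 1.98% of its gene by TPM and 3.71% and 0.304% by counts. Tnnt1-212, from slow skeletal muscle troponin T, was at 1.88 and 1.34 TPM with a share of 15.8% and 35.4% by TPM and 6.31% and 17.6% by counts. The muscle markers given above also differed between the libraries, and their part in this was not tested. All 5 models were at most 521 bases long, each beginning or ending inside an intron.

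The counts behind members ranged widely. The median expected count was 246 in replicate 1 and 367 in replicate 2, and the lowest was 2 in each. The posterior SD, the quantifier's own uncertainty in dividing fragments among transcripts, was a median of 4.47% of the count and above 10% in 471 members. It does not cover differences between tissue samples.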

How the data were processed

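Paired-end RNA-seq tables of 2 libraries of 1 group were used. Per the file headers, the authors deposited for each transcript an expected count (an estimated number of fragments), a TPM value (scaled by effective length and library) and a score, the posterior SD of the count. The deposited tables use mm10 and GENCODE M4 per the labels and file headers. Which aligner and which quantifier made them is not given in the sources used here. Also deposited by the authors, on mm9 for both replicates together, were junction read counts, a contig coverage signal and RPKM values for 2 replicates without replicate names. No coordinate was moved between builds.

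Transcript types, exons and sequences came from GENCODE M21, joined by transcript identifier without its version. A share is a transcript's TPM over the summed TPM of its gene. A retained intron is an intron of at least 30 bases, of another transcript of the gene, lying wholly inside 1 exon of the member. Shares, counts and medians were computed with pandas 2.3.3 and numpy 2.4.6 in Python 3.11.15, rank correlations with scipy 1.17.1, and plots drawn with matplotlib 3.10.9. Expected counts were rounded for TMM scaling in edgeR 4.0.16 (R 4.3.3), an alternative scaling. The intron finder and the 2-fold rule were tested on simulated data. There is 1 group, so no p-value is given, and the spread between the libraries may be technical in part.

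Members and gene lists were chosen with earlier results of these data known. Named were the 20 members highest in mean TPM, the 15 host genes highest in summed member TPM and the 15 members highest in share in genes of at least 10 TPM with a coding transcript. Also named were the 3 highest members of each list, the 3 on either side of the minimum and the 5 with the largest difference in share. Other members and genes named (Zfas1, Snhg5, Snhg17, Eif4a2, Nop56-212, Clk1, Clk4, Hc-202 and the 3 at 100%) were chosen after their values were seen.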

Additional observations from a re-analysis of the deposited data

How the results depend on the processing

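With a minimum of 0.5 TPM there were 4405 members, with 2 TPM 1659 and with 5 TPM 662. A minimum in 1 library alone gave 3153 to 3289. The median share was 3.65% by expected counts, 11.5% for members of at least 2 TPM, 9.03% with only coding, nonsense_mediated_decay and retained_intron transcripts in the gene's sum, and 8.65% to 8.76% in single libraries. Members of at least 50% numbered 34 by expected counts and 79 to 85 in single libraries. The median host share was 20.4% with every retained_intron transcript of the gene. The members' part of all TPM, 5.37% as a mean, was 3.17% by expected counts, 4.05% without globin and mitochondrial genes, 5.10% to 5.64% in single libraries, and 1.90% without Hba-a1-202 and Hbb-bs-202, a choice made after seeing the data. At 1.5-fold, 314 members differed between the libraries, against 66 at 2-fold. Of all genes, 29.1% hosted a member at 10 TPM. Of the 63 named shares, 54 were lower by expected counts. The causes of these shifts were not tested. Depth limits the members of few fragments, and the counts of 2 libraries give no estimate of the spread between litters.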
